A study of Mus musculus with 14 samples.

Results

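The eotaxin and eosinophil genes described here are the 6 of 7 listed symbols that were found in a table of 31274 genes from mouse uterus: the chemokines Ccl11 and Ccl24, the receptors Ccr3 and Il5ra, and the granule protein genes Epx and Prg2. They were chosen by symbol, from a list drawn up with earlier results of these data known, so their own differences between groups are given as a description with no p-value. The symbol Siglecf was not found and was dropped. RefSeq (GRCm38.p6) gives Siglec5 as a synonym of Siglecf, and the row named Siglec5 is given beside the others without being counted as one of them. RNA was sequenced from the whole uterus of FVB/N mice, intact, untreated and 2 months old, either wild type (WT) or HIF2A cKO, the name given to the conditional knockout of HIF2A, an oxygen-regulated transcription factor. The groups were WT at diestrus (4 libraries), WT at estrus (3), HIF2A cKO at diestrus (4) and HIF2A cKO at estrus (3). Diestrus is the progesterone-dominated stage of the estrous cycle, and estrus is the stage around ovulation. Neither the Cre driver nor the deleted exons are named in the labels. The labels also do not tie each library to an animal of its own, so every p-value below reflects the scatter of these libraries, part of which may be technical.

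Eosinophils are granulocytes of the bone marrow that enter the uterus under the influence of estrogen. The eotaxins CCL11 and CCL24 attract them through the receptor CCR3. IL5, acting through the receptor chain IL5RA and the shared beta chain CSF2RB, drives their production and survival. In the mature cell the granules hold eosinophil peroxidase (Epx) and major basic protein (Prg2), whose transcripts are made mainly while the cell develops in the marrow, and the surface carries the lectin Siglec-F.

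Most of these genes lie apart from one another in the genome (build mm10, annotation GENCODE M21). Ccl11 lies on the plus strand at chr11:82057823-82062955, inside a cluster of CC chemokine genes. Epx lies on the same chromosome at chr11:87864000-87875536 on the minus strand. The other positions are chr5:135569937-135573049 for Ccl24 (minus), chr9:124021972-124031689 for Ccr3 (plus), chr6:106710357-106749037 for Il5ra (minus), chr2:84980461-84983632 for Prg2 (plus) and chr7:43351341-43359531 for Siglecf (plus). No other annotated gene overlaps any of them.

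The 250 bases before the start site are shown for the receptors Ccr3 and Il5ra and for Siglecf, genes of the mature cell for which RefSeq (GRCm38.p6) gave a promoter entry, as it did for Epx. The windows are chr9:124021721-124021970 for Ccr3 (plus strand), chr6:106749038-106749287 for Il5ra (minus strand) and chr7:43351091-43351340 for Siglecf (plus strand), each printed 5′ to 3′ on the strand of the gene. Capitals mark matches on either strand to the word AGATAA, the word AGATAG, the word TGATAA or the word TGATAG, forms of the motif read by GATA factors, which direct eosinophil development.
Ccr3: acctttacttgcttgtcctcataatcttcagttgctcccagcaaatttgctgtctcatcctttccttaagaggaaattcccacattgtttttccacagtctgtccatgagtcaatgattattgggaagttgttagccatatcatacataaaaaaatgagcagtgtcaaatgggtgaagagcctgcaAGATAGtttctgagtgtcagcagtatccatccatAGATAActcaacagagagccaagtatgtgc
Il5ra: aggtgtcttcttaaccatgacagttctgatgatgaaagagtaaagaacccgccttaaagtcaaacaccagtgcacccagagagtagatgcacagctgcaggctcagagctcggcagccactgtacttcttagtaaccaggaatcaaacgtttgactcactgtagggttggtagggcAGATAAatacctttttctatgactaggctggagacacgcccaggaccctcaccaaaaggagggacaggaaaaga
Siglecf: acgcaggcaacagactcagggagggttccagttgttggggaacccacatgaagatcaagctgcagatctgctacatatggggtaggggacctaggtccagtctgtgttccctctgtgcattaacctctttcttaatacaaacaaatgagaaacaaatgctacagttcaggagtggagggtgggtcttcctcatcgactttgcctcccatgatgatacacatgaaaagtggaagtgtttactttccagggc
Ccr3 held 2 such matches and Il5ra held 1, while Siglecf and Epx held 0. Of all 32851 promoter windows of this length, 26.5% held at least 1. The word AGGTCA, part of the estrogen response element, was in none of the 4 windows and in 14.02% of all windows. ACGTG or GCGTG, the core read by hypoxia-inducible factors, occurred once in Il5ra, in none of the other 3, and in 38.6% of all windows.

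Levels are given in FPKM, fragment numbers corrected for transcript length and for the library's total, which can be compared between genes. Ccl11 was the highest of the 6 in every group, followed by Ccr3. Averaged over the 14 libraries, Ccl11 stood at 20.8 FPKM, Ccr3 at 3.18, Siglec5 at 1.18, Ccl24 at 0.636 and Il5ra at 0.327, with Prg2 and Epx below them in every library. The ranges of Ccl11 and Ccr3, and those of Ccr3 and Siglec5, did not overlap in any group. Siglec5 and Ccl24 overlapped in both estrus groups, and Ccl24 and Il5ra overlapped in HIF2A cKO at diestrus. A gene entered the test if at least 3 libraries reached 1 FPKM, and Ccl11, Ccl24 and Ccr3 passed, which is 3 of the 6. Ccl24 passed on exactly 3 libraries, all at estrus, so it could pass only by being high at that stage. The lowest of those 3 values was 1.003 FPKM and the highest that fell short was 0.933. Il5ra, Epx and Prg2 reached 1 FPKM in no library.

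**Figure D1:**
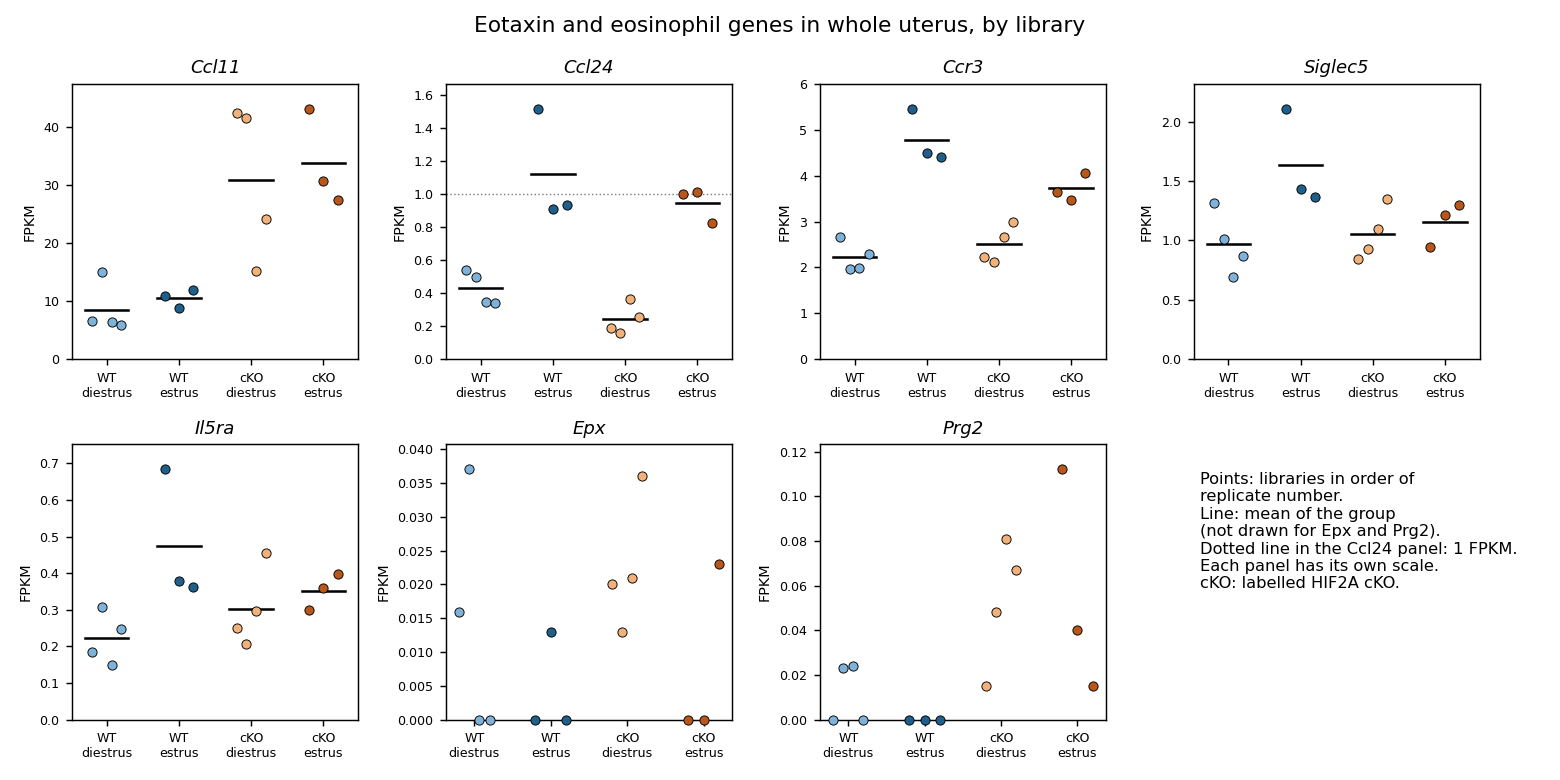
FPKM (vertical axes, from 0, each panel on its own scale) of the eotaxin and eosinophil genes in the 14 libraries (points), with the group mean as a line except for Epx and Prg2, which were listed at 0 in some libraries. Ccl11 lay higher in HIF2A cKO than in WT at both stages, Ccl24 and Ccr3 were higher at estrus in both genotypes, and Epx and Prg2 stayed at or below 0.112 FPKM.

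Ccl11, the eotaxin made mainly by stromal fibroblasts and epithelium in many tissues, differed by genotype more than by stage. At diestrus it stood at 6.60, 15.106, 6.48 and 5.84 FPKM in WT replicates 1 to 4 and at 42.5, 41.6, 15.143 and 24.2 in HIF2A cKO replicates 1 to 4. At estrus it stood at 10.9, 8.82 and 11.9 FPKM in WT replicates 1, 2 and 4 and at 43.2, 30.8 and 27.4 in the same replicates of HIF2A cKO. The genotypes did not overlap at either stage, but at diestrus the highest WT library (replicate 2) nearly reached the lowest HIF2A cKO library (replicate 3). In means ± SD, Ccl11 was at 8.51 ± 4.41 (n = 4) and 30.9 ± 13.4 FPKM (n = 4) at diestrus, a ratio of 3.63, and at 10.6 ± 1.57 (n = 3) and 33.8 ± 8.35 FPKM (n = 3) at estrus, a ratio of 3.20. On the scale of log2(FPKM + 1) used for all tests below, HIF2A cKO exceeded WT by 1.73 (SE 0.33) at diestrus and by 1.58 (SE 0.38) at estrus. The difference between these, the interaction of genotype and stage, was -0.15 (SE 0.50). Leaving out each library in turn moved the diestrus value between 1.54 and 2.02 and the estrus value between 1.39 and 1.71.

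Between stages of 1 genotype, Ccl11 overlapped. Estrus exceeded diestrus by 0.37 (SE 0.36) in WT and by 0.21 (SE 0.36) in HIF2A cKO on the log2 scale. In WT the value rested in part on replicate 2 of diestrus and was 0.65 without it. In HIF2A cKO it was -0.08 without replicate 3 of diestrus.

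Whole-tissue RNA cannot tell fewer cells of a type from less RNA per cell. The summed FPKM of 7 stromal fibroblast markers overlapped between genotypes at diestrus, at 1574 to 1848 in WT and 1374 to 1916 in HIF2A cKO. Of these 7, limma called 1 higher and 2 lower in HIF2A cKO at diestrus, with a median log2 difference of -0.10. Over all genes 13.8% were called higher and 10% lower at that stage. At estrus the sums were 1543 to 1689 and 1835 to 1908, without overlap. Dcn made up most of this sum, with means of 1142 FPKM in WT and 1342 in HIF2A cKO at estrus, and over the 7 markers the median log2 difference was 0.005 there, with 0 called by limma (1 at an unadjusted p under 0.05). The sums of 8 epithelial markers were 352 to 568 in WT and 416 to 880 in HIF2A cKO at diestrus, overlapping. Limma called 1 of the 8 higher and 1 lower in HIF2A cKO at diestrus, with a median log2 difference of 0.30. At estrus the epithelial sums were 914 to 1108 and 1158 to 1290, apart. Their median log2 difference was 0.16 there, and 0 were called by limma (1 at an unadjusted p under 0.05). The part of these lists in the Ccl11 difference was not tested. Epas1, the gene that encodes HIF2A, did not show the label by a lower level: it stood at 34.8 ± 5.82 and 39.5 ± 4.44 FPKM (SD, n = 4 each) in WT and HIF2A cKO at diestrus and at 32.9 ± 1.56 and 41.2 ± 4.01 (n = 3 each) at estrus. The genotype directions here therefore rest on the labels, and a gene total need not show the loss of a few exons.

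Ccl24, an eotaxin made mainly by macrophages, followed the stage. At diestrus it stood at 0.538, 0.50, 0.347 and 0.341 FPKM in WT replicates 1 to 4 and at 0.191, 0.157, 0.363 and 0.254 in those of HIF2A cKO. At estrus it stood at 1.52, 0.912 and 0.933 FPKM in WT replicates 1, 2 and 4 and at 1.00, 1.02 and 0.825 in those of HIF2A cKO. Every estrus library lay above every diestrus library of its genotype, and the genotypes overlapped at both stages. The ratio of estrus to diestrus means was 2.60 in WT and 3.93 in HIF2A cKO. On the log2 scale the stage difference was 0.56 (SE 0.11) in WT and 0.65 (SE 0.11) in HIF2A cKO, compressed by the added 1 FPKM at such low levels: with 0.1 added it was 1.18 and 1.65. HIF2A cKO minus WT was -0.21 (SE 0.11) at diestrus and -0.11 (SE 0.12) at estrus, compressed in the same way. With 0.1 added these differences were -0.66 and -0.19. The ratio of HIF2A cKO to WT means was 0.56 at diestrus and 0.85 at estrus. The summed FPKM of 9 macrophage markers also lay higher at estrus, at 442 to 485 against 244 to 331 in WT and 466 to 609 against 218 to 278 in HIF2A cKO, and its part in the Ccl24 difference was not tested.

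Ccr3, the eotaxin receptor, was also higher at estrus, by more in WT than in HIF2A cKO. At diestrus it stood at 2.67, 1.97, 1.99 and 2.30 FPKM in WT replicates 1 to 4 and at 2.23, 2.13, 2.66 and 3.00 in those of HIF2A cKO. At estrus it stood at 5.47, 4.49 and 4.41 FPKM in WT replicates 1, 2 and 4 and at 3.66, 3.48 and 4.06 in those of HIF2A cKO. The stages did not overlap in either genotype, and at estrus all 3 HIF2A cKO libraries lay below all 3 WT libraries. Estrus exceeded diestrus 2.14-fold in WT and 1.49-fold in HIF2A cKO in means, or by 0.84 (SE 0.11) and 0.44 (SE 0.11) on the log2 scale. HIF2A cKO minus WT was 0.12 (SE 0.10) at diestrus and -0.29 (SE 0.12) at estrus, and the interaction was -0.40 (SE 0.16), which limma with Benjamini-Hochberg adjustment over all genes did not call. Ccl11 and Ccr3, ligand and receptor, thus had opposite signs of the genotype difference at estrus. Mast cell markers lay in the same direction as Ccr3 at that stage: the sum of 9 was 121 to 161 FPKM in WT and 73.2 to 87.9 in HIF2A cKO. Over the 7 tested the median log2 difference was -0.64, with 0 called by limma. At an unadjusted p under 0.05 there were 4 of the 7, and 1053 of all 14278 genes. At diestrus the median of these 7 was -0.65 and 3 were called lower, where 10% of all genes were called lower. Ccr3 was at 0.12 at that stage. Between stages 5 of these 7 were called higher at estrus in each genotype. Over all genes 23% were called higher in WT and 25.5% in HIF2A cKO. In WT 1 of the 7 (Hdc) was called lower, where 34.1% of all genes were. The part of mast cells, which can also carry CCR3, in the Ccr3 values was not tested.

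Siglec5 had the same order of group means as Ccr3, at a lower level. At diestrus it stood at 1.31, 1.01, 0.690 and 0.869 FPKM in WT replicates 1 to 4 and at 0.847, 0.927, 1.099 and 1.35 in those of HIF2A cKO. At estrus it stood at 2.11, 1.44 and 1.37 FPKM in WT replicates 1, 2 and 4 and at 0.945, 1.21 and 1.30 in those of HIF2A cKO. Estrus lay above diestrus without overlap in WT, by 0.42 (SE 0.13) on the log2 scale, and overlapped with it in HIF2A cKO, at 0.07 (SE 0.13). At estrus HIF2A cKO lay below WT without overlap, with a log2 difference of -0.29 (SE 0.14), and the interaction was -0.35 (SE 0.19). The estrus difference was -0.16 without WT replicate 1, the highest library.

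Il5ra, the IL5-binding chain, was below 1 FPKM throughout and did not pass the filter. At diestrus it stood at 0.184, 0.309, 0.149 and 0.247 FPKM in WT replicates 1 to 4 and at 0.251, 0.208, 0.297 and 0.454 in those of HIF2A cKO. At estrus it stood at 0.683, 0.379 and 0.363 FPKM in WT replicates 1, 2 and 4 and at 0.299, 0.359 and 0.397 in those of HIF2A cKO. Only the WT stages were apart, with a ratio of means of 2.14, against 1.16 in HIF2A cKO. The genotypes overlapped at both stages.

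The granule genes were at the bottom of the table. Epx stood at 0.016, 0.037, 0 and 0 FPKM in WT at diestrus, at 0.020, 0.013, 0.021 and 0.036 in HIF2A cKO at diestrus, at 0, 0.013 and 0 in WT at estrus and at 0, 0 and 0.023 in HIF2A cKO at estrus. Prg2 stood at 0, 0.023, 0.024 and 0 FPKM in WT at diestrus, at 0.015, 0.048, 0.081 and 0.067 in HIF2A cKO at diestrus, at 0 in all 3 WT libraries at estrus and at 0.112, 0.040 and 0.015 in HIF2A cKO at estrus. Genes that every cell uses, such as Eef1a1, were also listed at 0 in whole groups, so a 0 here is only a listed value, and read counts that would set a detection limit were not used here. Prg3, a paralog of Prg2, was listed at 0 in all 3 WT libraries at estrus and reached 0.125 FPKM at most. Transcripts of eosinophil receptors were thus measured in all 14 libraries, while both granule genes were at or near 0.

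**Figure D2:**
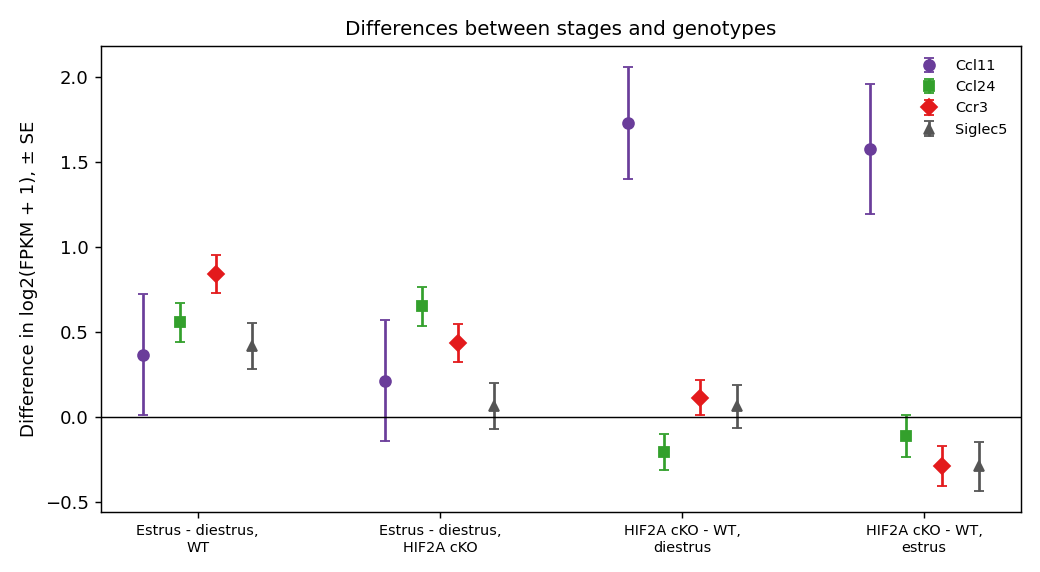
Differences in log2(FPKM + 1) between stages and between genotypes (vertical axis) with their standard errors (bars), from 1 limma fit of 14 libraries. The Ccl11 points lie highest in the genotype comparisons, at 1.73 and 1.58, and Ccl24 and Ccr3 lie above 0 in both stage comparisons.

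Of the 3 tested genes, Ccr3 was called higher at estrus in both genotypes and Ccl11 in neither. Ccl24 was called higher as well, but it passed the filter only through its estrus libraries, which fixed that direction in part, and it fell below the filter without WT estrus replicate 1 or HIF2A cKO estrus replicate 1 or 2. Of all 14278 genes tested, 23% were called higher and 34.1% lower in WT, and 25.5% and 36.5% in HIF2A cKO. Ccl11 was the 1 gene of the 3 called higher in HIF2A cKO at diestrus, where 13.8% of all genes were called higher and 10% lower. At estrus 0 of 3 were called by limma, and 0.07% of all genes were called higher and 0.035% lower. For the interaction 0 of 3 were called by limma, and 0.014% and 0.021% of all genes were called. These counts describe genes whose pattern was known when they were listed. The stages differed in so many genes that scaling mattered for the background: with median-of-ratios scaling, higher calls made up 50.7% of all calls in WT rather than 40.3%, and the median difference of all genes went from -0.09 to -0.01. The diestrus call of Ccl11 was lost when only the 8 diestrus libraries were fitted, in which 401 genes of the table were called rather than 3410. It was made again in that fit with the replicate number as a block, though pairing by number was not shown.

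Of the cytokines and receptors that act with these genes, 34 recruitment genes (chemokines, type 2 cytokines, their receptors and adhesion molecules) and 20 lineage genes (granule ribonucleases, leukotriene enzymes, transcription factors and surface proteins) were in the table, and 27 and 12 of them were tested. The lists were also drawn up with earlier results known. In WT, 16 of the 39 tested genes rose at estrus and 2 fell, where 23% of all genes were called higher and 34.1% lower, with a median log2 difference of 0.30 against -0.09 over all genes. In HIF2A cKO 13 rose and 5 fell, where 25.5% and 36.5% of all genes were called, with a median of 0.20 against -0.08. With median-of-ratios scaling these counts were 17 and 2 in WT and 14 and 3 in HIF2A cKO. The counts include genes whose direction the filter fixed in part. Tslp, called higher in both genotypes, passed the filter only through estrus, with at most 0.917 FPKM at diestrus in WT and 0.761 in HIF2A cKO. Ccr10 and Il13ra2, described below, passed only through diestrus.

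Itgam, Ltc4s and Ccl28 had the highest differences of the called genes in both genotypes. Itgam, the alpha chain of the integrin Mac-1 found on eosinophils, neutrophils and macrophages, went from 3.70 ± 0.36 to 18.3 ± 3.29 FPKM in WT (SD, 4 and 3 libraries) and from 4.51 ± 1.12 to 26.2 ± 1.27 in HIF2A cKO. Its log2 differences were 2.02 (SE 0.15, limma adjusted p = 5.01e-07) and 2.32 (adjusted p = 1.03e-07). Ltc4s, leukotriene C4 synthase, went from 2.54 ± 0.97 to 16.3 ± 3.05 FPKM in WT and from 2.81 ± 0.79 to 20.2 ± 6.41 in HIF2A cKO, by 2.32 (limma adjusted p = 9.59e-06) and 2.45 (adjusted p = 3.63e-06). Each of the 6 estrus libraries exceeded every diestrus library in both genes. Another annotated gene overlaps Itgam on the same strand, so counting by strand would not separate their reads. A gene on the opposite strand overlaps Ltc4s, and the labels do not say whether reads were counted by strand. The same holds for other genes named in the text, among them Vcam1, Ccr10, Ear2 and Ccl2.

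Ccl28, an epithelial chemokine that binds CCR3 and CCR10, had the largest difference of the 3. It stood at 24.5, 6.37, 1.90 and 15.9 FPKM in WT at diestrus and at 54.3, 62.3 and 84.4 in WT at estrus. In HIF2A cKO it stood at 13.6, 12.3, 2.22 and 8.54 FPKM at diestrus and at 90.2, 79.5 and 106 at estrus. The log2 differences were 2.77 (SE 0.65, limma adjusted p = 0.00288) and 3.39 (adjusted p = 0.000572). Ccl5, another CCR3 ligand, rose by 1.07 (limma adjusted p = 0.00291) in WT and 0.93 (adjusted p = 0.00606) in HIF2A cKO, from means of 2.80 and 1.73 to 6.77 and 4.35 FPKM. Vcam1, the endothelial ligand of the eosinophil integrin VLA-4, rose by 0.93 (limma adjusted p = 0.00265) and 0.60 (adjusted p = 0.0264). The second call was lost without any 1 of HIF2A cKO diestrus replicates 3 and 4 or estrus replicates 1 and 4, at 0.50 to 0.58. Ccr10, the other receptor of CCL28, fell by 0.44 on the log2 scale in HIF2A cKO (limma adjusted p = 0.00568). There it stood at 0.684 to 1.064 FPKM at diestrus and at 0.322 to 0.385 at estrus. Ccr10 reached 1 FPKM in no estrus library of either genotype. It thus passed the filter only through diestrus, which fixed that direction in part. Without WT diestrus replicate 3 or 4 or HIF2A cKO diestrus replicate 2 it fell below the filter. The call was also made with no filter.

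Il13ra2, the decoy receptor for IL13, fell most. It stood at 2.91 to 20.9 FPKM in WT and 2.88 to 9.61 in HIF2A cKO at diestrus, and at 0.015 to 0.109 and 0.103 to 0.148 at estrus. Il13ra2 too thus passed the filter only through its diestrus libraries. The log2 difference was -2.96 (limma adjusted p = 0.000381) in WT and -2.51 (adjusted p = 0.000939) in HIF2A cKO. Gata2, which encodes a GATA factor also made in uterine stroma, fell from 70.6 to 42.6 FPKM in WT (-0.71, limma adjusted p = 0.00035) and from 60.8 to 46.4 in HIF2A cKO (-0.37, adjusted p = 0.0172). The fall in HIF2A cKO lost its call without estrus replicate 2 (-0.35) or 4 (-0.34), with median-of-ratios scaling (-0.28), with quantile normalization (-0.27) and with the replicate block in the HIF2A cKO libraries alone (-0.29). Xbp1, a transcription factor of secretory cells, fell by 0.62 on the log2 scale in HIF2A cKO (limma adjusted p = 0.013).

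Of the granule and lipid enzyme genes, Ear2, a granule ribonuclease, rose at estrus in WT from 1.67 ± 0.32 to 2.51 ± 0.09 FPKM, by 0.40 (SE 0.12, limma adjusted p = 0.0134), and its difference in HIF2A cKO was 0.17 (adjusted p = 0.238). The Ear genes are close copies of each other, and how reads shared among them were assigned is not known. Ear1 and Ear6 were below 0.3 FPKM in every library. Alox15, the 12/15-lipoxygenase, was at 91.9 ± 35.4 and 126 ± 21.0 FPKM in WT and at 75.7 ± 48.4 and 109 ± 16.5 in HIF2A cKO, and neither stage difference passed the test (limma adjusted p = 0.261 and 0.143). Il5 did not exceed 0.103 FPKM in any library, and Il3 was listed at 0 in all 14.

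Marker lists of leukocytes differed in how they moved with stage. Of the 10 eosinophil markers, which include the genes above, the summed FPKM was 55.6 to 130 at diestrus and 114 to 157 at estrus in WT, and 48.5 to 153 and 103 to 135 in HIF2A cKO. Alox15 made up most of these sums, and the stages overlapped in both genotypes. Without it the other 9 summed to 4.82 to 5.93 and 8.77 to 10.8 in WT, apart, and to 5.33 to 7.51 and 7.30 to 9.12 in HIF2A cKO, overlapping. These 9 include Ccr3, Siglec5 and Il5ra, so their sum in part restates the values above and is no separate result. In WT the sum had means of 5.38 and 9.55 FPKM, of which Ccr3 alone gave 2.23 and 4.79. Of the 10 eosinophil markers 6 stayed under 1 FPKM in every group, and Prg2 and Prg3 were at 0 in WT at estrus. The sum of 9 neutrophil markers went from between 28.0 and 47.4 to between 77.7 and 109 in WT, and from between 31.9 and 38.2 to between 59.7 and 79.9 in HIF2A cKO, with Ngp or Camp at 0 in each group. Most of that difference was in Retnlg, with means of 30.96 and 83.1 FPKM in WT and 32.0 and 66.3 in HIF2A cKO. The other 8 neutrophil markers summed to a mean of 5.78 FPKM at diestrus and 5.63 at estrus in WT, overlapping, and to 3.06 and 6.61 in HIF2A cKO. Of 5 tested neutrophil markers 3 were called higher at estrus in each genotype. Over all genes 23% were called higher in WT and 25.5% in HIF2A cKO. Of 3 tested T cell markers 0 were called by limma in either genotype, with 0 at an unadjusted p under 0.05. Itgam, Alox5ap and Ltc4s are also expressed by neutrophils, macrophages or mast cells, and the part of those cells in the stage differences was not tested.

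**Figure D3:**
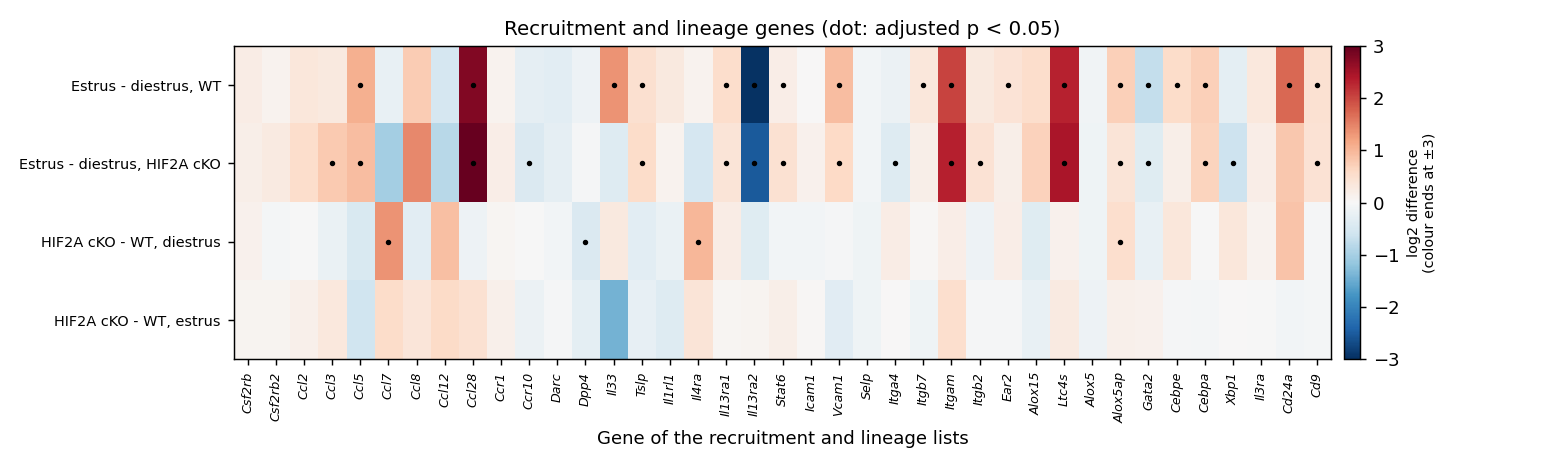
Log2 differences (colour, red higher and blue lower, limited at ±3) of the 39 tested recruitment and lineage genes (columns) in the 4 comparisons (rows), with dots where the adjusted p was below 0.05. Dots number 18 in each of the stage rows, 4 in the genotype row at diestrus and 0 in that at estrus.

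Between genotypes at diestrus, 3 of the 39 companion genes were higher in HIF2A cKO and 1 was lower, with a median of -0.02 against 0.02 over all genes. These are smaller shares than the 13.8% and 10% of all genes called, and the 4 genes are described singly. Ccl7, a chemokine for monocytes and eosinophils that binds CCR2 and CCR3, stood at 2.13, 5.31, 7.07 and 1.32 FPKM in WT and at 15.0, 14.3, 9.34 and 4.99 in HIF2A cKO. The groups overlapped at HIF2A cKO replicate 4, and the difference was 1.34 (SE 0.39, limma adjusted p = 0.0281). The Ccl7 call was lost without any 1 of WT replicates 1 and 4 and HIF2A cKO replicates 1 and 2, with values between 1.03 and 1.18, and also with no filter on low values. Il4ra, the receptor chain shared by IL4 and IL13, which induce eotaxin, stood at 18.4, 38.6, 32.7 and 16.1 FPKM in WT and at 50.1, 49.5, 62.3 and 40.9 in HIF2A cKO. It did not overlap and differed by 0.99 (SE 0.23, limma adjusted p = 0.0113). Alox5ap, the 5-lipoxygenase activating protein, was higher by 0.50 (SE 0.14, limma adjusted p = 0.0253), a call lost without any 1 of WT replicates 3 and 4 and HIF2A cKO replicates 1 and 2, with values between 0.38 and 0.47.

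Dpp4, which encodes a peptidase that trims and inactivates CCL11, was the gene that was lower. It stood at 19.1, 15.2, 14.8 and 16.1 FPKM in WT and at 10.96, 11.1, 11.5 and 13.7 in HIF2A cKO at diestrus. All 4 HIF2A cKO libraries lay below all 4 WT libraries (log2 difference -0.43, SE 0.09, limma adjusted p = 0.00701). At estrus the means were 14.5 ± 0.81 and 11.6 ± 0.58 FPKM (SD, n = 3 each) and the difference of -0.30 did not pass the test (limma adjusted p = 0.493). Antisense genes are annotated across Il4ra, Alox5ap and Dpp4, and their reads cannot be told apart here. With the replicate number as a block in all 14 libraries, 5 companion genes were called at diestrus, Cd24a being the added gene. With only the 8 diestrus libraries and no block, 0 of the 4 calls were made.

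At estrus 0 of the 39 companion genes were called between genotypes, with 5 at an unadjusted p under 0.05 in limma. The largest of these was Il33, an alarmin that activates eosinophils through ST2 (Il1rl1). It stood at 16.0, 18.7 and 14.5 FPKM in WT and at 4.48, 7.26 and 4.93 in HIF2A cKO, without overlap, a difference of -1.42 (SE 0.42, limma adjusted p = 0.371). In WT Il33 had risen at estrus by 1.35 (limma adjusted p = 0.0105) from 6.41 ± 3.30 FPKM, whereas the interaction of -1.73 (SE 0.55) was not called (adjusted p = 0.17). When the 6 estrus libraries were fitted alone, Il33 was called, and so was Ccl11. Il1rl1 itself was at 1.45 ± 0.31 and 0.867 ± 0.247 FPKM at estrus (limma adjusted p = 0.55). For the interaction 0 of 39 were called, with 2 at an unadjusted p under 0.05.

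Along chromosome 11 the difference of Ccl11 was not shared evenly by its neighbours. Ccl2 starts 22252 bases and Ccl7 12111 bases before the start of Ccl11, and Ccl12 starts 44022 bases and Ccl8 57362 bases after it. At diestrus HIF2A cKO minus WT was -0.01 for Ccl2, 1.34 for Ccl7, 1.73 for Ccl11, 0.91 for Ccl12 and -0.32 for Ccl8, with standard errors of 0.25, 0.39, 0.33, 0.55 and 0.60. Of the 4 neighbours, Ccl7 passed the test, and the adjusted p was 0.977 for Ccl2, 0.236 for Ccl12 and 0.726 for Ccl8 in limma. At estrus the values were 0.16, 0.54, 1.58, 0.57 and 0.36 in the same order, and 0 of the 4 neighbours passed. Ccl8 and Ccl12 varied widely within diestrus, with Ccl8 at 92.8 FPKM in WT replicate 3 against 8.57 to 20.7 in the others.

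**Figure D4:**
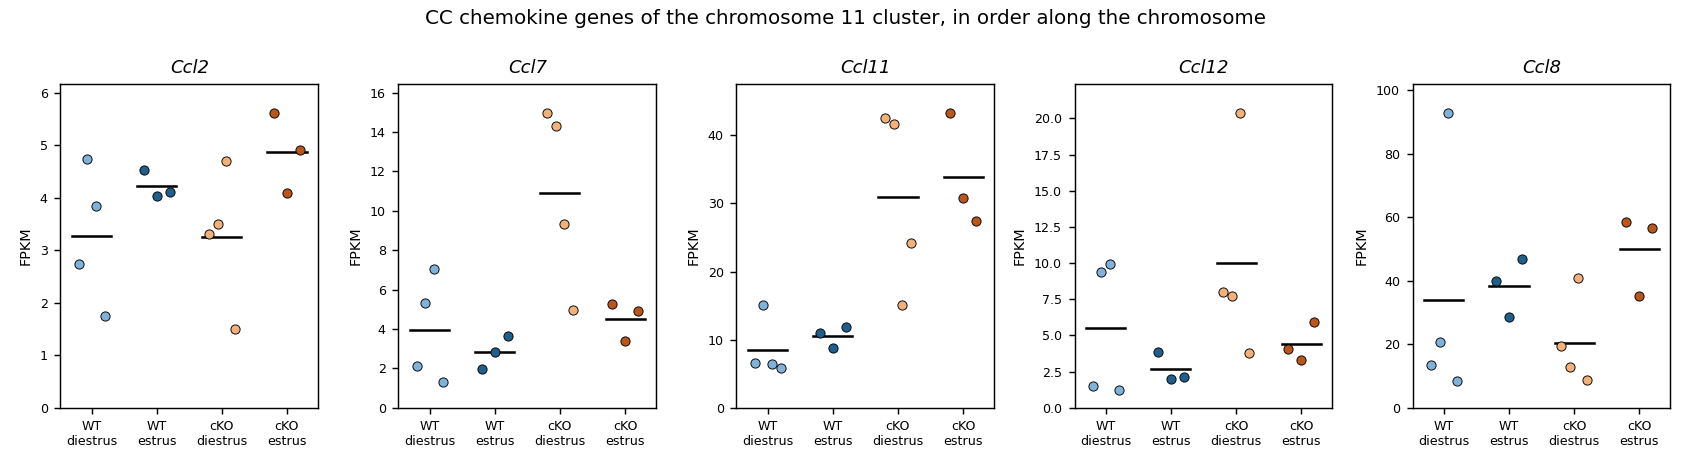
FPKM (vertical axes, from 0, each panel on its own scale) of 5 CC chemokine genes of chromosome 11 in the 14 libraries (points), panels in order along the chromosome, with group means as lines. In Ccl11 the genotypes did not overlap at either stage, while in the other 4 they overlapped at diestrus.

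Genes with the most similar pattern were listed for each gene that reached a mean of 1 FPKM in some group, by Pearson's r of log2(FPKM + 1) over the 14 libraries among 10538 genes. For Ccl11 these were Klf4 (r = 0.974), Eno1 (0.964) and Ankrd13a (0.949), and with the group means removed r was 0.902, 0.833 and 0.891. Klf4, a zinc-finger factor, stood at 18.4 ± 4.08 and 26.3 ± 4.57 FPKM in WT and at 53.6 ± 19.98 and 54.7 ± 6.88 in HIF2A cKO, at diestrus and estrus. For Ccl24 they were Ptprr (0.953), Sat1 (0.953) and Zfp874b (0.950), which fell to 0.703, 0.555 and 0.575 within groups. For Ccr3 they were Socs6 (0.966), Ptprr (0.961) and Retnlg (0.960), and for Siglec5 Tns4 (0.824), Ctdp1 (0.792) and Retnlg (0.784). These values describe libraries that share 4 groups and 1 table, and carry no test.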

How the data were processed

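Whole-uterus RNA was purified on columns with DNase and made into TruSeq RNA libraries, per the labels' protocols. The authors deposited FPKM values with 3 decimals. TopHat2 2.0.4, Cufflinks 2.0.2 and build mm10 are named, with no roles, per the submitters' processing notes. The labels give no annotation, options or strand, and read counts were not used here, so absolute depth is unknown. FPKM sums per library ran from 437879 to 497688, and ratios of the lowest values gave relative depths between 1.00 and 1.93. Low values are the least precise.

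From these values limma 3.58.1 (R 4.3.3) fitted log2(FPKM + 1) for all 14 libraries together, 1 mean for each group, with a mean-variance trend. A gene was tested if 3 or more libraries reached 1 FPKM (14278 genes), with Benjamini-Hochberg adjustment at 0.05. Adding 1 FPKM shrinks log2 differences of low genes. Before the fit, 7 genes listed at 0 throughout 1 group but averaging 50 FPKM or more in another (C3, Col1a1, Col1a2, Col3a1, Eef1a1, Fcgbp, Ltf) and 4 small RNAs of that kind were dropped. The fit was tested on simulated data, with changes planted in WT estrus alone, in genes averaging above 3 on the log2 scale. The planted changes did not cover genes as low as Ccr3 and Ccl24, or differences between genotypes.

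The members and lists were chosen with earlier results of these data known. Besides the members, the text names a fixed set of companion genes, the 3 highest and 3 lowest of those called in each comparison, and the 3 genes closest in pattern. Further genes are named where a count is small (Cd24a), for the chromosome 11 cluster (Ccl2, Ccl12) and from marker sums; these were chosen after their values were seen. Same-numbered WT and HIF2A cKO libraries at diestrus deviated together from their group means. Across genes r was 0.321, 0.115, 0.622 and 0.217 in the 4 pairs. Libraries of unlike number were not compared. A shift shared by the libraries numbered 3 alone could also make r positive in the other pairs, so these values cannot show pairing by number. The labels do not give such pairing either, and the replicate block was used only as an alternative. Alternatives were scaling, pseudocount, filter, libraries in the fit, eBayes without trend, the replicate block and leaving out each library. Leaving out both diestrus libraries numbered 3 and keeping the genes listed at 0 were added after seeing the data.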

Additional observations from a re-analysis of the deposited data

Results flagged for a closer look

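In groups of 4 libraries, a library was singled out when its gap to the nearest other, divided by the group's range, exceeded Dixon's critical value. Over 62 groups of 31 genes this marked 6 values. The critical value marks about 1 in 20 groups only for independent, normally distributed values. FPKM of related genes need not be so, and the number of marks is therefore not compared with chance. Ccl11 stood at 15.106 FPKM in WT diestrus replicate 2, against 5.844 to 6.596 in the others. The other 5 were in the libraries numbered 3. Csf2rb, the beta chain of the IL5 receptor, stood at 14.419 FPKM in WT diestrus replicate 3 (others 2.410 to 2.932) and at 13.080 in HIF2A cKO diestrus replicate 3 (others 3.057 to 3.396). Csf2rb2, its close paralog, which can share reads with it, stood at 7.091 (others 1.807 to 1.935) and 6.459 FPKM (others 1.669 to 1.984) in those libraries. Ccl8 stood at 92.768 FPKM in WT diestrus replicate 3, against 8.565 to 20.717 in the others.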

How the results depend on the processing

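No log2 difference of a called companion gene reversed under the alternatives tried: of 40 such differences, 27 kept their call in every alternative that gave a value. The calls lost most often were those of Alox5ap and Itgb2 in HIF2A cKO and Stat6 in WT, all between stages. The count of eotaxin and eosinophil genes called between stages, 2 in each genotype, was 0 with a filter of 5 FPKM, which left out Ccl24 and Ccr3, was 3 in WT with no filter, which added Il5ra, and was 1 to 2 when each library was left out. At diestrus between genotypes the count was 1 and became 0 with only the groups compared, and at estrus the count of 0 became 1 (Ccl11) with only the groups compared and also with the replicate block in those groups. Of companion genes at diestrus, 4 were called, 0 with only the groups compared, 2 to 8 when each library was left out (2 without WT replicate 4, HIF2A cKO replicate 1 or HIF2A cKO replicate 2, 8 without HIF2A cKO replicate 3) and 7 without both diestrus libraries numbered 3. At estrus 0 became 1 (Il33) with only the groups compared, with or without the replicate block, and for the interaction 0 became 2 (Cd24a and Il33) without HIF2A cKO diestrus replicate 3 or without both libraries numbered 3, so the range over libraries left out was 0 to 2. With the replicate block in all libraries, 5 companion genes were called at diestrus. Between stages 18 companion genes were called in each genotype. That count ran from 14 (filter of 5 FPKM) to 23 (replicate block in all libraries) in WT. In HIF2A cKO it ran from 13 (without estrus replicate 4) to 25 (replicate block). Csf2rb, Csf2rb2 and Ccl8 were called higher at estrus in both genotypes with the block in all libraries, and also without both diestrus libraries numbered 3. For same-numbered libraries of the 2 genotypes at estrus r was 0.080, 0.096 and -0.047, and between stages it lay between -0.135 and 0.018. FPKM without counts gives no counting error, which limits Il5ra, Epx and Prg2 most.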
